A study of Homo sapiens with 6 samples.

Results

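The nuclear genes for mitochondrial ribosomal proteins were followed in U2OS cells depleted of E2F7. They were chosen by symbol, MRPL or MRPS followed by a number and at most 1 letter, and had to be listed at all 3 times of the study. The rule found 75 of 11886 genes, 47 with an MRPL symbol and 28 with an MRPS symbol. None of the 75 was listed at 0 in any library.

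Mitochondria have a ribosome of their own, which translates the few messenger RNAs made from mitochondrial DNA, all of them for subunits of the respiratory chain and the ATP synthase. Its ribosomal RNAs come from mitochondrial DNA, while every protein of its large subunit (MRPL) and small subunit (MRPS) is encoded in the nucleus, made in the cytosol and imported. Some of these proteins have a counterpart in bacterial ribosomes and others are found in mitochondria but not in bacteria. MRPS18A and MRPS30 carry small-subunit symbols but sit in the large subunit, and MRPS36, now named KGD4, is a component of the 2-oxoglutarate dehydrogenase complex and not of the ribosome.

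U2OS is an established human osteosarcoma line. All cells were held for 24 h in 4 mM hydroxyurea, which arrests them as DNA synthesis begins, and were then washed and returned to drug-free medium. They carried either siRNA against E2F7 (siE2F7), an atypical E2F factor that represses E2F target genes, or a control siRNA without a target (siNT). RNA of siE2F7 and siNT cells was taken at 0, 3 and 12 h after release, which the submitters place at G1/S, in S phase and at the boundary of G2 and M. Each arm had 1 library per time, 6 in all, so a time has no replicate. How many siRNAs were used, and on which day, is not given in the sources used here.

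Levels are given as FPKM, a fragment count divided by transcript length and library size, so levels of different genes can be compared. Depth cannot be read from FPKM, so no counting error is given. The FPKM of a library added up to 351305 to 375954, lowest in the siNT library of 3 h. E2F7 itself had 9.48, 10.6 and 5.52 FPKM in siE2F7 cells at 0, 3 and 12 h, against 20.3, 29.4 and 16.6 FPKM in siNT cells, a log2 difference of -1.37 ± 0.10 (SE; limma, adjusted p = 0.001). Of 10 bone markers 6 were listed, with sums of 688.3 to 843.8 FPKM in siE2F7 and 806.4 to 942.6 FPKM in siNT libraries, and TNFRSF11B (-0.56, adjusted p = 0.029) and ALPL (-0.37, adjusted p = 0.043) fell in siE2F7 cells. Of 7 epithelial markers 4 were listed, at 202.9 to 224.0 FPKM in siE2F7 and 244.6 to 302.6 FPKM in siNT libraries, and KRT8, KRT18 and CLDN4 fell in siE2F7 cells. Of 7 blood markers LAPTM5 alone was listed, at 0.9 to 1.8 FPKM in siE2F7 and 1.6 to 2.5 FPKM in siNT libraries. The part of these shifts in the results below was not tested.

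The 75 genes were well above the typical gene. Their median level was 31.8, 27.3 and 32.1 FPKM in siE2F7 cells at 0, 3 and 12 h and 32.3, 26.7 and 34.9 FPKM in siNT cells, where the median of all 11886 genes lay between 10.9 and 11.3 FPKM in each library. In the intact ribosome nearly every protein is present once, while the transcript levels of the members, averaged over the 6 libraries, spanned 7.16 to 144.9 FPKM. Together they held 0.714% to 0.797% of the FPKM of a siE2F7 library and 0.711% to 0.829% of a siNT library.

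In the large subunit the most abundant transcripts were MRPL33 at 144.9 FPKM, MRPL51 at 143.4 FPKM, MRPL14 at 106.1 FPKM and MRPL3 at 73.0 FPKM, each a mean over 6 libraries. MRPL14 and MRPL3 have bacterial counterparts that contact ribosomal RNA in the body of the subunit, and MRPL51 is specific to mitochondria. The least abundant were MRPL22 at 8.92 FPKM, MRPL34 at 11.9 FPKM, MRPL54 at 12.2 FPKM and MRPL19 at 12.5 FPKM. Among MRPS symbols MRPS24, the uS3 protein of the mitochondrial ribosome, led with 114.0 FPKM, ahead of MRPS16 at 63.2 FPKM, MRPS21 at 60.0 FPKM and MRPS15 at 57.1 FPKM. The lowest were MRPS31 at 7.16 FPKM, MRPS14 at 7.73 FPKM, MRPS25 at 15.7 FPKM and MRPS36, which is not a ribosome subunit, at 18.4 FPKM. Over the 6 libraries MRPL33 overlapped MRPL51, MRPL22 overlapped MRPL34, MRPL54 and MRPL19, MRPS16 overlapped MRPS21 and MRPS15, MRPS31 overlapped MRPS14, and MRPS25 overlapped MRPS36, so the order within each of these sets is not settled. MRPS24 shares its locus with URGCP and with a read-through entry of both genes, so its level is uncertain.

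The main comparison asked which of these genes differed between siE2F7 and siNT cells over the 3 times. MRPL19, MRPS12, MRPL40 and MRPS7 fell in siE2F7 cells, to between 0.705 and 0.803 of the siNT level, and no member rose. The test was limma on log2(FPKM + 0.1), time being a block, adjusted by Benjamini-Hochberg over all 11886 genes with a threshold of 0.05. It called 4 of 75 members lower (5.33%), against 7.13% of all genes, and 0 of 75 higher, against 6.76% of all genes. At an unadjusted p under 0.05 there were 10 members (13.3%, against 30.2% of all genes), of which MRPL45 alone was higher. The members' share of calls was thus not above that of all genes. Their median log2 difference was -0.05, with a middle 50% of -0.12 to 0.01, beside -0.03 and -0.17 to 0.12 over all genes. The members' median was -0.018, -0.10 and -0.030 without the 0 h, 3 h and 12 h libraries.

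MRPL19 encodes bL19m, a large-subunit protein with a bacterial counterpart at the interface of the subunits. Its FPKM was 10.4, 8.88 and 11.6 in siE2F7 cells at 0, 3 and 12 h, against 14.2, 13.5 and 16.3 in siNT cells. Every siE2F7 library lay below every siNT library. The log2 difference was -0.51 ± 0.08 (SE, adjusted p = 0.0074; 95% interval -0.69 to -0.32), with -0.44, -0.60 and -0.48 at 0, 3 and 12 h. MRPL19 lies at chr2:75873909-75889334 (hg19), a locus that no other entry of the tables shares.

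MRPS12 encodes uS12m, the protein of the decoding centre where codon and anticodon are read. Its FPKM was 23.9, 19.7 and 24.7 in siE2F7 cells at 0, 3 and 12 h, against 26.8, 26.7 and 35.2 in siNT cells. The arms did not overlap, and the gap was smallest at 0 h. Over the 3 times the log2 difference was -0.37 ± 0.08 (SE, adjusted p = 0.03), with -0.16, -0.44 and -0.51 at 0, 3 and 12 h. MRPS12 lies in the locus chr19:39405904-39423659 (hg19) together with SARS2, the mitochondrial seryl-tRNA synthetase. SARS2 had 4.43, 4.8 and 8.0 FPKM in siE2F7 cells at the 3 times and 4.82, 4.01 and 6.79 FPKM in siNT cells, a log2 difference of 0.12 ± 0.12 that did not pass the test (adjusted p = 0.53).

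MRPL40 encodes mL40, a protein specific to mitochondria in the central protuberance, the part of the large subunit that faces the head of the small subunit. Its FPKM was 68.3, 49.4 and 51.2 in siE2F7 cells at 0, 3 and 12 h, against 78.8, 60.4 and 70.3 in siNT cells. At each time the siE2F7 library was the lower of the pair, but its 0 h value was above the siNT value of 3 h, so the arms overlapped. The log2 difference was -0.32 ± 0.07 (SE, adjusted p = 0.03), with -0.20, -0.29 and -0.46 at 0, 3 and 12 h. MRPL40 lies at chr22:19420036-19423596 (hg19), in the region of chromosome arm 22q11 that is lost in a recurrent human deletion.

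MRPS7 encodes uS7m, which binds the ribosomal RNA of the small-subunit head. Its FPKM was 49.5, 44.0 and 48.1 in siE2F7 cells at 0, 3 and 12 h, against 64.6, 49.0 and 63.9 in siNT cells. The siNT library of 3 h fell among the siE2F7 libraries, so the arms overlapped. The log2 difference was -0.32 ± 0.07 (SE, adjusted p = 0.032), with -0.38, -0.16 and -0.41 at 0, 3 and 12 h. The locus of MRPS7, chr17:73232694-73267311 (hg19), is shared with GGA3 and MIF4GD. MIF4GD, which binds a factor of histone mRNA translation, fell too, with 8.24, 6.67 and 7.42 FPKM in siE2F7 cells against 12.6, 9.25 and 10.5 FPKM in siNT cells (log2 difference -0.52 ± 0.08, adjusted p = 0.0083). GGA3 did not pass (log2 difference 0.07, adjusted p = 0.61). Overlapping reads could have been divided between MRPS7 and these neighbours, and nothing in the sources used here says that strand was used.

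**Figure D1:**
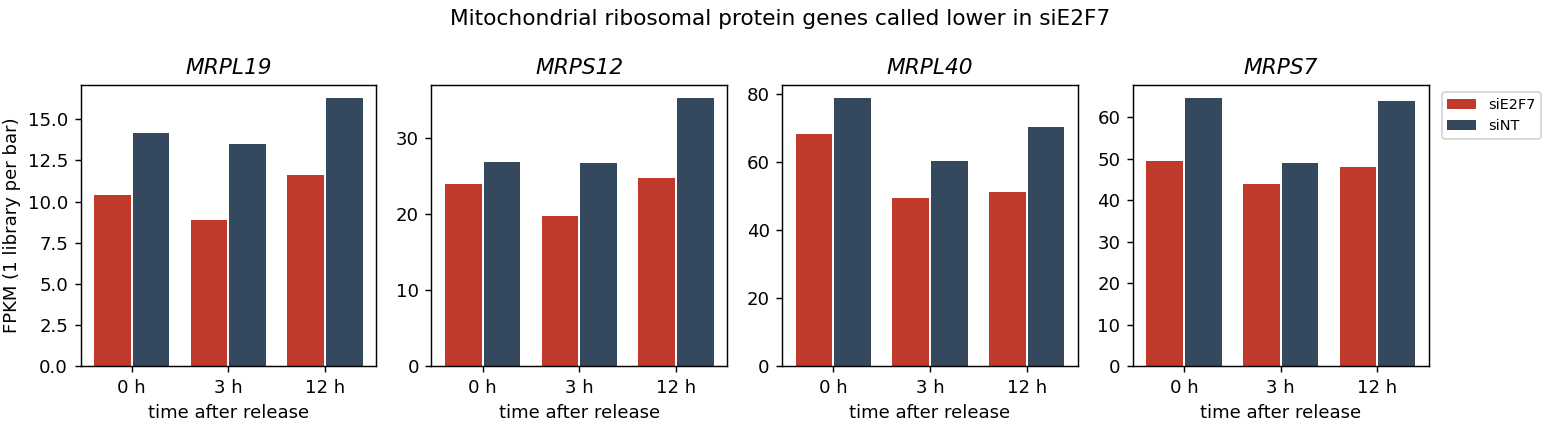
FPKM (vertical axes, from 0) of MRPL19, MRPS12, MRPL40 and MRPS7 at 0, 3 and 12 h after release; each bar is 1 library, red for siE2F7 and dark grey for siNT. The siE2F7 bar is the lower of the pair at every time, for example 10.4 against 14.2 FPKM for MRPL19 at 0 h.

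The calls of MRPS12, MRPL40 and MRPS7 depended on the libraries and on the error model. Without the 12 h libraries MRPL19 alone passed, and the adjusted p of MRPL40, MRPS12 and MRPS7 was 0.13, 0.091 and 0.11. With no time block the adjusted p of MRPL19 was 0.27, and no other member passed either. Because nothing says that the times came from separate cultures, p-values measure only the spread between these libraries, and in bulk RNA a shift in the share of cells at a cycle stage cannot be told apart from a change per cell.

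The promoters of the called members are shown because E2F7 acts on promoters and because genes of mitochondrial proteins are known for binding sites of the factors NRF1, NRF2 (GABP, an ETS factor) and YY1. Sequences are those of RefSeq (GRCh38.p14), 250 bases before to 25 after the transcript start, in the direction of transcription, which is the plus strand for each. Capitals mark the letters of a searched motif, and a sequence with none is in lower case throughout. MRPL19 is at chr2:75646533-75646807, MRPS12 at chr19:38930694-38930968 (1 of 2 starts), MRPL40 at chr22:19432295-19432569 and MRPS7 at chr17:75261629-75261903.
MRPL19: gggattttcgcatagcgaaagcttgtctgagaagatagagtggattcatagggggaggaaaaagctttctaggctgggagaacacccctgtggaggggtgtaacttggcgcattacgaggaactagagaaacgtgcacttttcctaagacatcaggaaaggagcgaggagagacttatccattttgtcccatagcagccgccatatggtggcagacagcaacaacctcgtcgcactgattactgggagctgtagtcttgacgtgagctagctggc
MRPS12: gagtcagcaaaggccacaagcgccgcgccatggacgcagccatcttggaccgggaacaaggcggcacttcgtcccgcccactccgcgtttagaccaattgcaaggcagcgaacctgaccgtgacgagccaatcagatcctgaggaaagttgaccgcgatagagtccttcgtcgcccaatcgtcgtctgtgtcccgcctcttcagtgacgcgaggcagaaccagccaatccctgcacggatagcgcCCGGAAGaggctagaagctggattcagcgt
MRPL40: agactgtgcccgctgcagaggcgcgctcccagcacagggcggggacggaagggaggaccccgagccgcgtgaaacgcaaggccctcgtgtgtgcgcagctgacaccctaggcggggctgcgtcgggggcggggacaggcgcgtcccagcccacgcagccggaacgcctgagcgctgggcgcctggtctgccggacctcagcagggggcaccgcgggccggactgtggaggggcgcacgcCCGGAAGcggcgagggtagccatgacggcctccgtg
MRPS7: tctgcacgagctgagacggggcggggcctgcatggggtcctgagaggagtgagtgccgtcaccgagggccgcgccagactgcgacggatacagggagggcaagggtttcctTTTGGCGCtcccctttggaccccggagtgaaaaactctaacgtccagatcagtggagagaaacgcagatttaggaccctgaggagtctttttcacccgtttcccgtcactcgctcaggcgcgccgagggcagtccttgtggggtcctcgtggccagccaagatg
MRPS12 held the ETS core CCGGAAG from position -5 and MRPL40 held it from position -11, counted from the start. MRPS7 held the E2F motif TTTGGCGC from position -139, and MRPL19 held none of the motifs searched.

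Over the whole group, 67 of 75 members had an entry, with 83 promoter windows of 250 bases before to 50 after the start. The ETS core CCGGAAG, on either strand, was in 32 of 83 windows (38.6%), against 17.3% of 12189 windows of all tested genes and 10.3% of 35116 windows of the table. A YY1 consensus was in 9 windows (10.8%), against 1.84% and 0.849%. An NRF1 consensus was in 1 window (1.2%), that of MRPL17, against 2.02% and 1.24%. E2F motifs, searched as TTTCCCGC, TTTGGCGC and TTTCGCGC, were in 5 windows (6.02%), of MRPL18, MRPL37, MRPL42 and MRPS7, against 4.24% and 2.74%. Of these E2F-motif genes MRPS7 alone was called. The median log2 difference between siE2F7 and siNT was -0.03 for the 29 members with the ETS core and -0.06 for the other matched members. Windows of members had a median GC content of 59.6%, against 64.7% for tested genes. A match describes letters and does not show binding, and no ChIP data are used here.

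Members were also searched for a start, close to their own, of a gene read in the opposite direction. Of 67 members with an entry, 24 (35.8%) had such a start within 1000 bases, against 29.4% of 8267 tested genes with an entry, and for 17 members (25.4%, against 12.2%) the neighbour was itself tested. Of the 17 neighbours 2 were called (11.8%, against 13.9% of all genes in either direction), a share not above that of all genes. TCP1, a subunit of the cytosolic chaperonin whose start lies 210 bases from that of MRPL18, fell in siE2F7 cells (log2 difference -0.40 ± 0.07, adjusted p = 0.0098), while MRPL18 had -0.07 ± 0.07 and did not pass (adjusted p = 0.57). NCAPD2, a condensin subunit 840 bases from MRPL51, rose (0.30 ± 0.08, adjusted p = 0.048), while MRPL51 had -0.03 ± 0.07 (adjusted p = 0.84). HIRA, a histone chaperone 812 bases from the called MRPL40, had 0.13 ± 0.08 and did not pass (adjusted p = 0.31). MRPL46 and MRPS11 are each other's neighbour, 320 bases apart, and neither passed, at -0.08 ± 0.08 and 0.03 ± 0.07.

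The other 71 members did not pass. Standard errors of all 75 members ranged from 0.06 to 0.18 on the log2 scale, with a median of 0.08. The 95% interval of 74 members lay within a 1.5-fold difference in either direction, MRPL19 being the exception, against 77% of all genes. These intervals, not adjusted for the number of genes, use the 2 residual and 5.4 prior degrees of freedom of the fit.

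**Figure D2:**
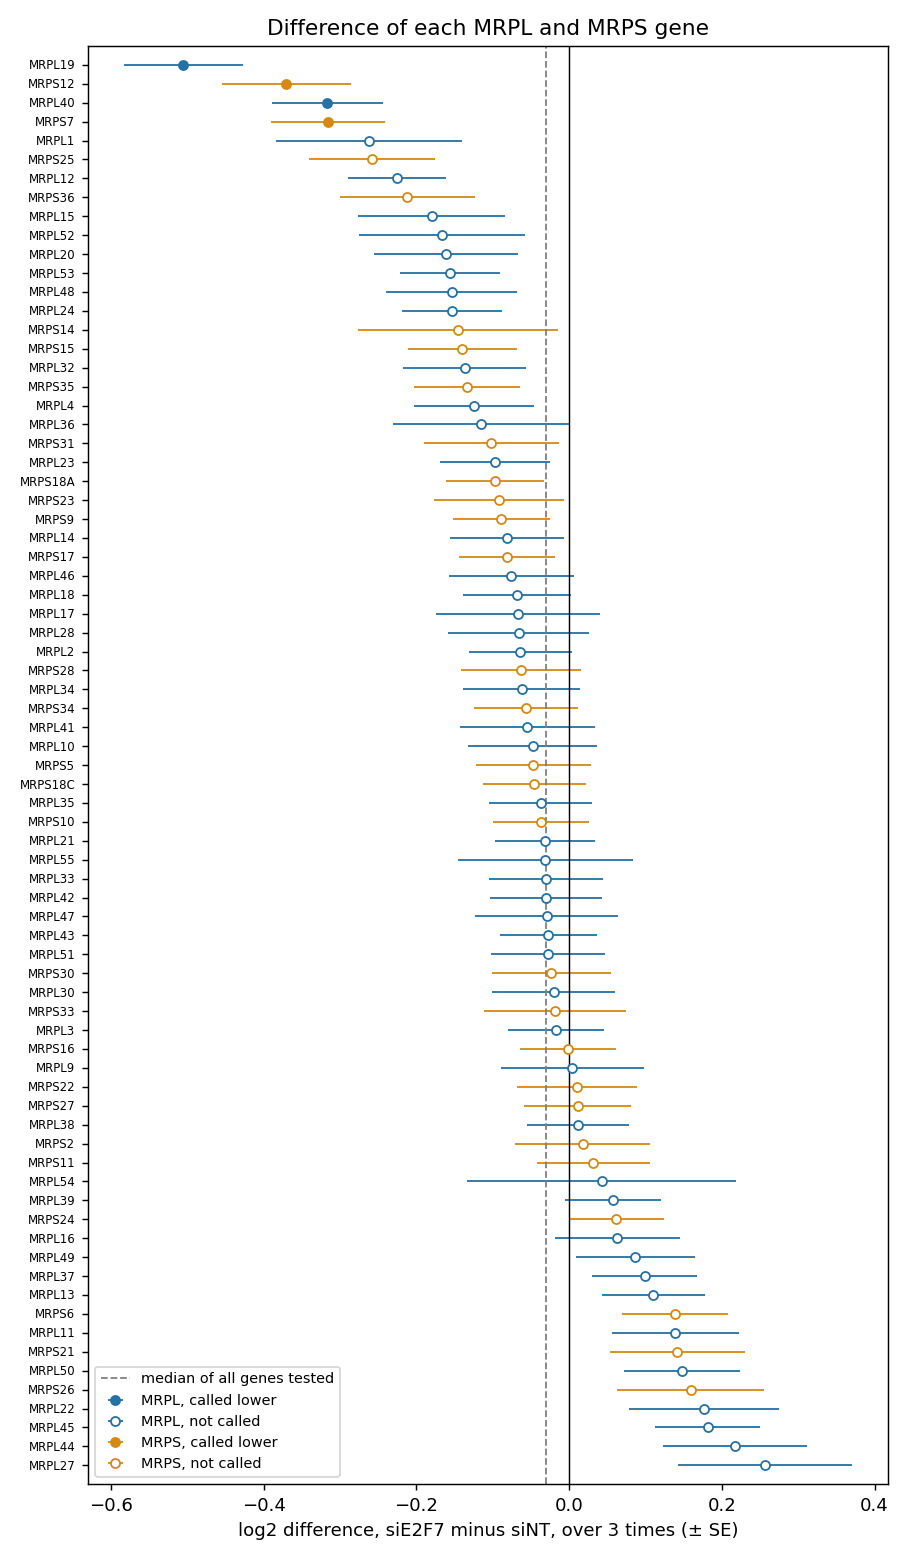
Fitted log2 difference of siE2F7 minus siNT (horizontal axis, with SE) for each of the 75 genes, ordered from lowest to highest; blue marks MRPL and orange MRPS symbols, filled points passed the test and the dashed line is the median of all genes tested. MRPL19 lies lowest at -0.51 and MRPL27 highest at 0.26, and most points stand within 0.2 of 0.

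Among proteins of the stalks, the flexible parts that handle translation factors and spent tRNA, MRPL12 came nearest to the threshold. MRPL12, the bL12m protein that recruits translation factors, had 56.8, 45.3 and 49.5 FPKM in siE2F7 cells at 0, 3 and 12 h, against 66.8, 50.5 and 60.5 FPKM in siNT cells. The siE2F7 library was the lower of each pair, and the arms overlapped. Its log2 difference of -0.23 ± 0.06 missed the threshold (adjusted p = 0.059) and passed after quantile normalization (adjusted p = 0.034). MRPL1, the protein of the L1 stalk where tRNA leaves, had 14.5, 13.9 and 13.9 FPKM in siE2F7 cells, against 19.1, 12.8 and 19.9 FPKM in siNT cells. The siE2F7 values were nearly level while the siNT value of 3 h was the lowest of all, and the log2 difference was -0.26 ± 0.12 (adjusted p = 0.2), or -0.45 without the 3 h libraries (adjusted p = 0.049). MRPL10 and MRPL11, at the base of the L12 stalk, had differences of -0.05 ± 0.08 and 0.14 ± 0.08, and neither passed.

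Of 5 proteins classed here as lying around the exit of the polypeptide tunnel, none passed the test. An unadjusted p under 0.05 was reached by 2, MRPL45 (higher) and MRPL24 (lower), a level that 30.2% of all genes reached. The class leaves out MRPL17 and MRPL47, which had -0.07 ± 0.11 and -0.03 ± 0.09. MRPL44, which is related to RNase III enzymes, had 14.8, 14.2 and 18.3 FPKM in siE2F7 cells at 0, 3 and 12 h, against 15.0, 10.9 and 14.9 FPKM in siNT cells. The arms were level at 0 h and apart at 3 and 12 h, and the log2 difference was 0.22 ± 0.09 (adjusted p = 0.17). MRPL45, which anchors the ribosome to the inner membrane, had 21.5, 19.1 and 25.1 FPKM in siE2F7 cells, against 18.6, 16.5 and 23.0 FPKM in siNT cells. It was above siNT at each time, with a log2 difference of 0.18 ± 0.07 (adjusted p = 0.12), and reads could also fall on its pseudogene MRPL45P2, listed at a mean of 3.85 FPKM. MRPL22, whose bacterial counterpart lines the tunnel, had a log2 difference of 0.18 ± 0.10 (adjusted p = 0.27), while MRPL23 and MRPL24 had -0.10 ± 0.07 and -0.15 ± 0.07.

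The highest difference of all members was that of MRPL27, the counterpart of a bacterial protein that reaches into the catalytic centre. It had 42.9, 50.1 and 63.9 FPKM in siE2F7 cells at 0, 3 and 12 h, against 44.2, 33.2 and 54.8 FPKM in siNT cells. The gap came mainly from 3 h, where the log2 difference was 0.59, and the difference over the 3 times was 0.26 ± 0.11 (adjusted p = 0.18). Of 4 members classed here as lying in the central protuberance, MRPL40, described above, was the 1 call (25%, against 7.13% of all genes lower). MRPL38, MRPL46 and MRPL48 did not pass. The class may leave out other members of that part and is too small to be set apart from all genes.

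In the small subunit MRPS25, specific to mitochondria, had 14.5, 14 and 14.4 FPKM in siE2F7 cells at 0, 3 and 12 h, against 19.2, 15.2 and 17.1 FPKM in siNT cells. The arms did not overlap, and the log2 difference of -0.26 ± 0.08 missed the threshold (adjusted p = 0.079). It shares a locus with FGD5-AS1, an RNA that rose in siE2F7 cells (0.34 ± 0.07, adjusted p = 0.024), and with NR2C2. MRPS35 had 31.4, 31.1 and 30.3 FPKM in siE2F7 cells, against 35.5, 31.6 and 34.9 FPKM in siNT cells, again without overlap, at a log2 difference of -0.13 ± 0.07 (adjusted p = 0.24). On the high side MRPS26 had a log2 difference of 0.16 ± 0.10, MRPS21 of 0.14 ± 0.09, MRPS6 of 0.14 ± 0.07 and MRPS24 of 0.06 ± 0.06, with adjusted p between 0.23 and 0.55. MRPS36, outside the ribosome, had -0.21 ± 0.09 (adjusted p = 0.15). The paralogs MRPS18A, in the large subunit, and MRPS18C, in the small subunit, had -0.10 ± 0.06 and -0.05 ± 0.07, and neither passed (adjusted p = 0.35 and 0.69).

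By class of protein, the counts of lower calls stand against 7.13% of all genes and are too small to set the classes apart. Of large-subunit proteins with an MRPL symbol and a bacterial counterpart 1 of 30 fell, with a median log2 difference of -0.06. Of MRPL proteins specific to mitochondria 1 of 17 fell, with a median of -0.03. MRPS18A and MRPS30, also in the large subunit, had a median of -0.06 and, like MRPS36, were left out of these classes. In the small subunit 2 of 16 with a bacterial counterpart fell, with a median of -0.05, and 0 of 9 specific to mitochondria, with a median of -0.06, although 1 of these 9, MRPS25, had an unadjusted p under 0.05 (11.1%, against 30.2% of all genes). In 4 of 75 members, MRPL19, MRPS12, MRPS25 and MRPS35, every siE2F7 library was below every siNT library (5.33%, against 8.76% of all genes), and in 0 of 75 it was above (against 6.88%).

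The sign of the difference changed with time in many members. At 0 h 63 of 75 were below siNT, with a median log2 difference of -0.11, where 55.5% of all genes were below and their median was -0.04. At 3 h 23 of 75 were below, with a median of 0.08, against 49.9% and 0.00 for all genes. After quantile normalization the median at 3 h was 0.03. The values at 3 h were also split by symbol, without a test. Of MRPL genes 10 of 47 were below (21.3%), with a median of 0.08. Of MRPS genes 13 of 28 were below (46.4%), with a median of 0.01, near that of all genes. These 28 include MRPS18A, MRPS30 and MRPS36, which are not in the small subunit. The small subunit was not uniform at 3 h. Its 9 proteins specific to mitochondria had a median of 0.11, and its 16 with a bacterial counterpart had 0.01. At 12 h 50 of 75 were below, with a median of -0.08, against 55.9% and -0.04. The swing also moved with transcript length (GENCODE 29), and its part in these medians was not tested. For transcripts of 600 to 900 bases the median at 0, 3 and 12 h was -0.092, 0.030 and -0.088 over 22 members, close to -0.079, 0.034 and -0.059 over all 1618 genes of that length. At 900 to 1300 bases it was -0.14, 0.049 and -0.089 over 25 members, beside -0.062, 0.020 and -0.050 over all 1398 genes. Below siNT at 0 and 12 h and above it at 3 h were 27 members (36%), against 11.9% of all genes. Below it at all 3 times were 19 members (25.3%, against 28.6%), and above it at all 3 were 8 (10.7%, against 22.8%): MRPL11, MRPL13, MRPL37, MRPL39, MRPL45, MRPL50, MRPS6 and MRPS24.

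**Figure D3:**
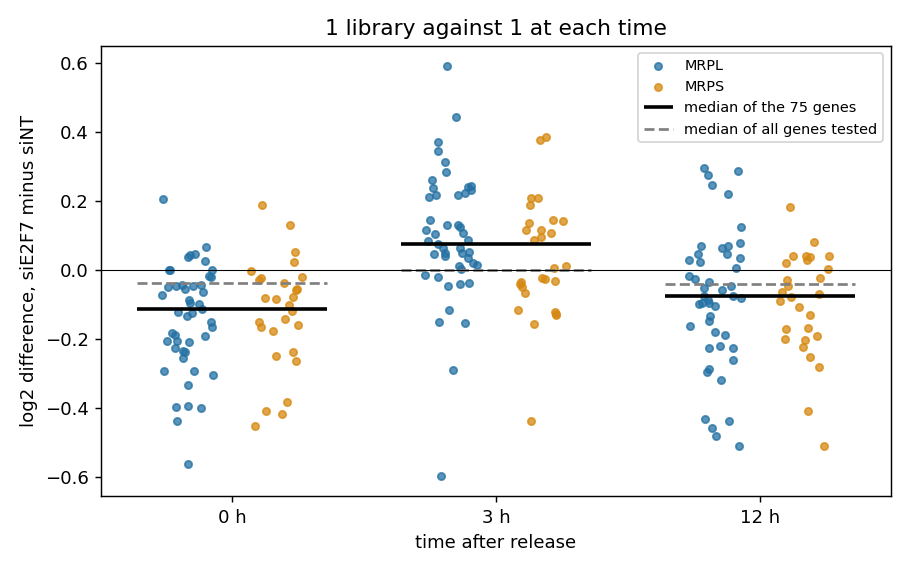
Log2 difference of siE2F7 minus siNT at each time (vertical axis) for the 47 MRPL and 28 MRPS genes, 1 point per gene; black bars are the medians of the 75 genes and dashed bars those of all genes tested. The median of the 75 genes is -0.11 at 0 h, 0.08 at 3 h and -0.08 at 12 h, and the points of each time spread widely around it.

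At single times, each 1 library against 1 and without a test, few members differed by more than 1.5-fold. At 3 h MRPL19 was past it downward (1.33% of members, against 3.9% of all genes) and MRPL27 upward (1.33%, against 3.9%). At 0 h no member was past it in either direction, against 4.4% of all genes lower and 2.7% higher, and at 12 h none was, against 6.58% and 5.07%. MRPL54, specific to mitochondria, swung more widely between the times than any other member. It had 8.84, 12.0 and 16.5 FPKM in siE2F7 cells at 0, 3 and 12 h, against 13.1, 8.83 and 13.9 FPKM in siNT cells. The siE2F7 library was the lower at 0 h and the higher at 3 and 12 h, and over the 3 times the log2 difference was 0.04 ± 0.18. MRPS14, a protein of the small-subunit head, had 6.47, 8.29 and 7.26 FPKM in siE2F7 cells, against 8.89, 7.16 and 8.30 FPKM in siNT cells.

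Within each arm the times were set side by side without a test, since each time was deposited as its own table and a common scaling is not known. In siE2F7 cells the median log2 difference of the members was -0.10 for 3 h over 0 h, 0.13 for 12 h over 3 h and 0.02 for 12 h over 0 h. In siNT cells it was -0.34, 0.31 and -0.02. The same medians over all genes were -0.05, -0.01 and -0.05 in siE2F7 cells and -0.10, 0.04 and -0.03 in siNT cells. The members thus dipped at 3 h in both arms, and by more in siNT cells, where 73 of 75 were lower at 3 h than at 0 h (97.3%, against 61.3% of all genes), the exceptions being MRPL42 and MRPS2. In siE2F7 cells 59 of 75 were lower at 3 h (78.7%, against 57.2%). From 3 to 12 h 16 members were lower in siE2F7 cells (21.3%, against 50.8% of all genes) and 2, MRPS6 and MRPS36, in siNT cells (2.7%, against 44.6%). From 0 to 12 h 36 members were lower in siE2F7 cells (48%, against 55.4%) and 40 in siNT cells (53.3%, against 54.1%). This difference between arms rests on the same siNT library of 3 h as the siE2F7 minus siNT median at 3 h, so the results are not independent.

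The siNT library of 3 h held the lowest of the 6 values for 46 of 75 members, where 17.9% of all genes had their lowest value there, and the siE2F7 library of 3 h held it for 20, where 19.4% of all genes did. The highest value was in siNT at 0 h for 28 members, where 22.9% of all genes had theirs. It was in siNT at 12 h for 25 members, where 19.6% of all genes had theirs. Summed over the 75 genes, FPKM was 2882.5, 2634.4 and 2902.8 in siE2F7 cells at 0, 3 and 12 h and 3116.2, 2497.4 and 3091.3 in siNT cells.

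**Figure D4:**
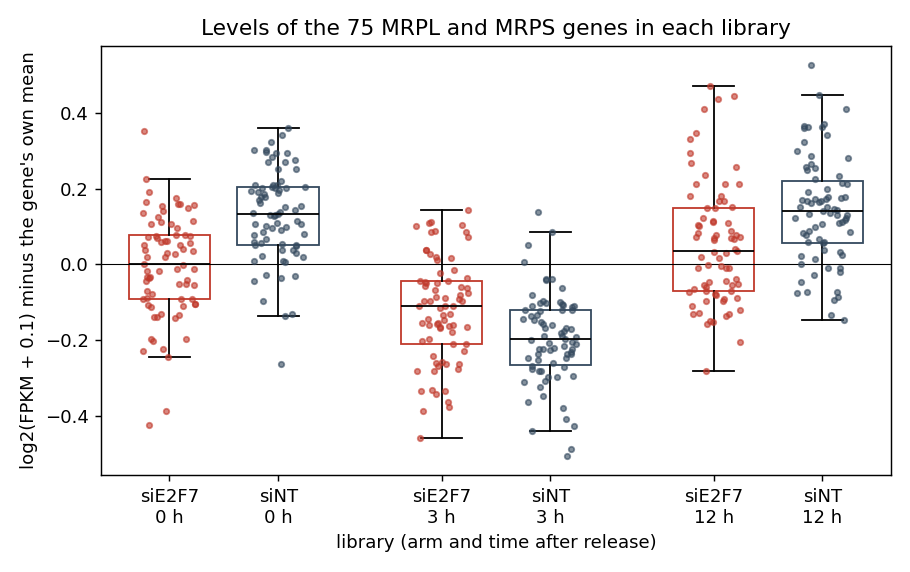
Log2(FPKM + 0.1) of the 75 genes in each library minus the gene's own mean over the 6 libraries (vertical axis), with 1 point per gene; boxes show the median and quartiles, whiskers reach the last point within 1.5 times the box, red is siE2F7 and dark grey siNT. Both libraries of 3 h lie low, and the siNT library of 3 h holds the lowest value for 46 of the 75 genes.

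Transcript length moved with the dip in siNT cells. Members are short, with a median transcript of 1032 bases against 1822 for tested genes (GENCODE 29), and over all genes the median log2 difference of 3 h over 0 h in siNT was -0.18 up to 600 bases and 0.05 above 4000 bases. The part of length in the members' dip was not tested. From 600 to 900 bases the 22 members had a median of -0.36, against -0.15 for all 1618 genes, and from 900 to 1300 bases the 25 members had -0.34, against -0.15 for all 1398 genes. From 1300 to 1800 bases the 15 members had -0.33, against -0.13 for all 1531 genes. These classes include the members themselves, and the 4 members of 1800 to 2500 bases and the 2 of 2500 to 4000 bases were too few for a median. After quantile normalization the median of the 75 members for 3 h over 0 h in siNT was -0.29.

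Past 1.5-fold between 0 and 3 h in siNT cells were MRPL46, MRPS26 and MRPS33, all lower at 3 h (4.0%, against 7.49% of all genes). MRPL46, of the central protuberance, had 16.6, 13.0 and 20.2 FPKM in siE2F7 cells at 0, 3 and 12 h and 19.1, 12.3 and 21.6 FPKM in siNT cells. From 3 to 12 h MRPL10, MRPL46 and MRPL55 were past 1.5-fold upward in siE2F7 cells (4.0%, against 7.4%), and 7 members were in siNT cells (9.33%, against 6.5%). From 0 to 12 h MRPL10, MRPL36, MRPL54 and MRPL55 were past it upward in siE2F7 cells (5.33%, against 6.44%), and MRPS2 in siNT cells (1.33%, against 5.45%). No member was past it downward from 3 to 12 h (against 8.23% of all genes in siE2F7 and 6.78% in siNT cells) or from 0 to 12 h (against 10% and 9.23%), nor between 0 and 3 h in siE2F7 cells in either direction (against 6.52% lower and 5.45% higher).

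Averaged over both arms, the log2 difference of 12 h over 0 h was highest in the large subunit for MRPL36 (0.62), MRPL54 (0.49) and MRPL10 (0.46), and lowest for MRPL33 (-0.33), MRPL49 (-0.31) and MRPL40 (-0.29). MRPL36, which joins the large subunit late in its assembly, had 19.3, 23.1 and 32.1 FPKM in siE2F7 cells at 0, 3 and 12 h and 25.4, 19.6 and 36.4 FPKM in siNT cells. Both arms ended above their 0 h level. In the small subunit the highest were MRPS2 (0.46), MRPS23 and MRPS31, and the lowest were MRPS33 (-0.33), MRPS11 and MRPS26. MRPS2 had 34.3, 37.9 and 41.7 FPKM in siE2F7 cells and 31.4, 34.3 and 48.7 FPKM in siNT cells, with no dip at 3 h in either arm.

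Other genes of mitochondrial gene expression were compared as lists, each by its count of called genes and its median, beside 6.76% of all genes higher, 7.13% lower and a median of -0.03. Of 10 further mitoribosome proteins with other symbols 0 rose and 0 fell, and the median log2 difference was -0.04. Of these 1 had an unadjusted p under 0.05 (10.0%, against 30.2% of all genes). Of 17 mitochondrial translation factors 1 rose (5.88%) and 2 fell (11.8%), with a median of -0.12, or -0.013 without the 0 h libraries. MTFMT, which formylates the initiator tRNA, had -0.47 ± 0.09 (adjusted p = 0.016), MRRF, the ribosome recycling factor, had -0.32 ± 0.08 (adjusted p = 0.037), and MTRF1L, a release factor, had 0.40 ± 0.08 (adjusted p = 0.017). Of 22 assembly factors 2 rose and 0 fell, namely NGRN (0.58 ± 0.06, adjusted p = 0.0027), needed for the large-subunit ribosomal RNA, and FTSJ2 (0.29 ± 0.07, adjusted p = 0.03), now named MRM2, which methylates that RNA. Of 21 mitochondrial tRNA synthetases TARS2 alone was called, lower in siE2F7 cells (-0.36 ± 0.08, adjusted p = 0.03), and the median was -0.15. Of 19 genes that copy, keep and transcribe mitochondrial DNA POLG2, the accessory subunit of its polymerase, was the only call (-0.36 ± 0.10, adjusted p = 0.047), with a median of -0.05.

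Among 80 nuclear respiratory chain genes 0 rose and 5 fell, with a median of -0.06. They were NDUFB3, NDUFC1 and NDUFS1 of complex I and ATP5H and ATP5C1 of the ATP synthase. Of 27 import genes the outer membrane receptor TOMM20 rose (0.60 ± 0.07, adjusted p = 0.0028) and TOMM34 fell (-0.50 ± 0.06, adjusted p = 0.0038). Of 10 regulators of mitochondrial biogenesis GABPA, the ETS-domain subunit of the factor that binds the core searched above, rose (0.49 ± 0.12, adjusted p = 0.038). It had 11.5, 9.98 and 15.0 FPKM in siE2F7 cells at 0, 3 and 12 h, against 7.26, 9.11 and 9.26 FPKM in siNT cells. ESRRA, a nuclear receptor of the same list, fell (-0.28 ± 0.07, adjusted p = 0.042). Of 81 cytosolic ribosomal protein genes 0 rose and 2 fell, RPS26 and RPS25, with a median of -0.04.

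The swing between times was shared by some of the other lists. For 0, 3 and 12 h the median log2 difference of siE2F7 minus siNT was -0.14, 0.13 and -0.14 in the cytosolic ribosome list, -0.17, 0.11 and -0.11 in the respiratory chain list and -0.09, 0.09 and -0.14 in the import list. The further mitoribosome proteins had -0.08, 0.09 and -0.11, and the translation factors had -0.13, 0.02 and -0.16. The assembly factors had -0.09, 0.001 and -0.01, and the biogenesis regulators had 0.10, 0.10 and -0.04. The tRNA synthetase list was below 0 at all 3 times, at -0.02, -0.09 and -0.21. So was the list of mitochondrial DNA genes, at -0.04, -0.06 and -0.10. In siNT cells 81 of 81 cytosolic ribosome genes and 79 of 80 respiratory chain genes were lower at 3 h than at 0 h, with medians of -0.25 and -0.33, near the -0.34 of the 75 members. The biogenesis regulators had 0.34 in that comparison.

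**Figure D5:**
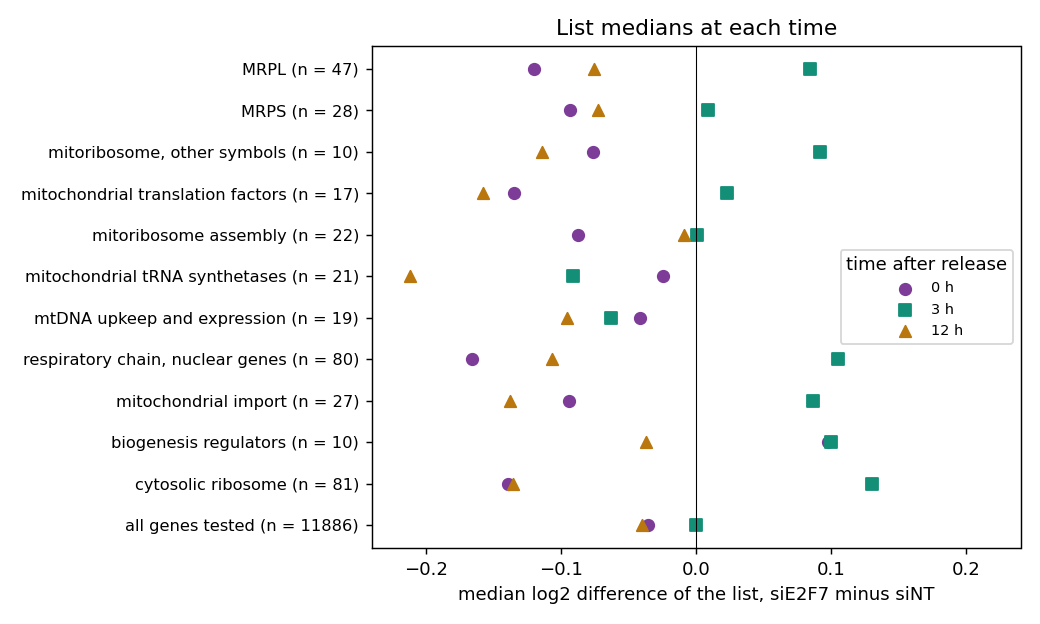
Median log2 difference of siE2F7 minus siNT (horizontal axis) of each gene list at 0 h (circles), 3 h (squares) and 12 h (triangles), with the number of genes in brackets. MRPL, respiratory chain and cytosolic ribosome genes lie below 0 at 0 and 12 h and above 0 at 3 h. MRPS genes lie at 0.01 at 3 h, and all genes tested lie at -0.04, 0.00 and -0.04.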

How the data were processed

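RNA of 6 libraries (2 arms, 3 times) was measured by sequencing. Per the labels' protocols, total RNA was made into libraries with a TruSeq RNA kit. Values are FPKM per gene as deposited by the authors, with 12799, 12475 and 12299 genes at 0, 3 and 12 h. The higher library of each pair was at 1.26 FPKM or more. Per the submitters' processing notes, CASAVA 1.8 and build hg19 (GRCh37) were used; for the aligner, annotation and filters the sources used here give nothing. Loci are printed 1-based, with 1 added to each deposited start. A locus can join overlapping genes: 2070 tested genes and 10 of the 75 members share it (MRPL9, MRPL20, MRPL43, MRPL49, MRPS6, MRPS7, MRPS12, MRPS18C, MRPS24 and MRPS25).

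The 11886 genes listed at all times were fitted on log2(FPKM + 0.1) by limma 3.58.1 (R 4.3.3), with a variance trend. All log2 differences are on this scale, which understates changes of low genes. The members, lists and tests were chosen with earlier results of these data known. Named genes are E2F7, called members, the MRPS18 paralogs and up to 4 called genes per list. In each subunit they include the 4 highest and 4 lowest members by difference and by level. They also include the 3 highest and 3 lowest of each subunit by 12 h over 0 h. Added after their values were seen were MRPL10, MRPL11, MRPL17, MRPL18, MRPL23, MRPL24, MRPL46, MRPL47, MRPL55 and MRPS35, neighbouring genes and members named in counts. Transcript lengths (GENCODE 29) were found for 10192 genes (85.7%) and all 75 members. Alternatives were other pseudocounts, filters, scalings and error models, and leaving out a time or genes with shared loci.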

Additional observations from a re-analysis of the deposited data

Results flagged for a closer look

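The median log2 difference of the 75 genes, siE2F7 minus siNT, was -0.11 at 0 h, 0.08 at 3 h and -0.08 at 12 h, and was picked out because its sign differed between times. Members with log2 differences past 0.2 in each direction were picked out for the same reason. They were MRPL9 (-0.21 at 0 h, 0.24 at 3 h), MRPL17 (0.24 at 3 h, -0.32 at 12 h), MRPL36 (-0.40 at 0 h, 0.23 at 3 h), MRPL47 (-0.24 at 0 h, 0.22 at 3 h), MRPL54 (-0.56 at 0 h, 0.44 at 3 h and 0.25 at 12 h), MRPL55 (-0.33 at 0 h, 0.28 at 12 h) and MRPS14 (-0.45 at 0 h, 0.21 at 3 h). Each value compares 1 library with 1, so the differences between times were not tested.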

How the results depend on the processing

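None of the 4 called members changed direction under an alternative run. The direction of the other called genes was not checked. Some medians near 0 changed sign: siNT 12 h over 0 h (below), further mitoribosome proteins (0.012) and import genes (0.015) without the 12 h libraries, and biogenesis regulators without shared-locus genes (-0.023) or the 0 h libraries (-0.0096). The members' median of -0.05 was -0.018, -0.10 and -0.030 without the 0 h, 3 h and 12 h libraries and -0.030 with equal library medians. The count of members lower in siE2F7 was 4. It was 1 without a variance trend, 0 without the time block and 1 without the 12 h libraries. In the other alternatives run it was from 3 to 5. Without genes that share a locus it was 3, namely MRPL19, MRPL40 and MRPL12, because MRPS12 and MRPS7 are left out there. No member was higher under any alternative run. Over all genes the 847 lower calls were 452 without a variance trend and 17 without the time block, and 538, 431 and 560 without the 0 h, 3 h and 12 h libraries; the 803 higher calls were 400 without a variance trend, 15 without the time block and 332 without the 3 h libraries. Among the calls, MRPL19 was lost only without the time block (adjusted p = 0.27). MRPL40 was lost without a variance trend (0.091), without the block (0.56) and without the 3 h (0.082) or 12 h (0.13) libraries, MRPS12 under the same alternatives (0.087, 0.46, 0.12 and 0.091), and MRPS7 without a trend (0.095), without the block (0.46) and without the 0 h (0.11) or 12 h (0.11) libraries. The cause was not tested. The translation factor median was -0.013 without the 0 h libraries and that of mitochondrial DNA genes was -0.084 without the 3 h libraries. With equal library medians the members' median for 12 h over 0 h was 0.067 in siE2F7 and 0.009 in siNT cells. The arms were paired by time, with 1 library of each arm in a block; the labels carry no replicate numbers, so no other pairing could be fitted. Count-based tests were not run because the tables hold FPKM, so depth is unknown and low genes cannot be weighed by their reads.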
